A study of Homo sapiens with 8 samples.

Results

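The genes described here are MYC, a transcription factor gene, and 43 factors that build ribosomes: proteins of the nucleolus, of ribosomal RNA processing and of RNA polymerase I. They were taken by gene symbol, and all 44 were found among the 62700 rows of the count table and among the 17535 genes that passed the filter on low counts. The data are poly-A RNA sequencing of the human leukaemia-derived monocyte line THP-1, in 2 groups of 4 libraries. The auranofin group (AF) received auranofin at 0.5 µM, a gold-containing drug that blocks the redox enzyme thioredoxin reductase, and the DMSO group received the vehicle at under 0.1% by volume. Per the sample protocol, drug or vehicle was given for 24 h before and then throughout a 48 h load with acetylated LDL, which turns macrophages into lipid-filled foam cells, whereas the series' design text places the treatment after the load. Both groups had first been differentiated with PMA (phorbol ester, 50 ng/mL for 72 h) and both carried the lipid load, so no unloaded or undifferentiated cells enter the comparison. It asks how the drug alters gene expression in foam cells. The 4 libraries of a group carry only 2 name stems (replicates 1 and 2 share one, 3 and 4 the other) and nothing says that they came from separate cultures, so p-values measure the spread between libraries, which may be technical. A fall here cannot be told apart from fewer cells of a kind or less of the RNA per cell.

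Libraries held 19336073 to 32325981 counts. Entries of the ribosomal DNA repeat made up 34.8% of the counts of AF replicate 1, against 0.743% to 0.963% in the other 7 libraries. Because the libraries were made from poly-A RNA, this share is no measure of the cells' ribosomal RNA. All 12 macrophage marker genes of a chosen list were present, summing to 4803 to 5182 CPM in AF and 5324 to 6022 CPM in DMSO (CPM are depth-scaled counts, here with composition factors). Of these markers 3 were lower with AF (LYZ at -0.95, MSR1 at -0.73 and AIF1 at -0.23 on the log2 scale) and 3 higher (ITGAX at 0.69, ITGAM at 0.43 and CD14 at 0.33). The other 6 did not pass the threshold of an adjusted p under 0.05. Over all genes 7.81% were lower and 7.62% higher. LYZ alone averaged 745 ± 66.4 CPM in AF and 1434 ± 143 CPM in DMSO. Markers of T cells, B cells, fibroblasts and epithelium summed to at most 3.77 CPM per list in AF and 3.38 CPM in DMSO, with EPCAM, KRT19, COL1A2, LUM and MS4A1 at 0 in every library.

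MYC pairs with MAX, binds E-box sequences at gene starts and is known to drive growth genes, those of ribosome assembly prominent among them. A ribosome begins in the nucleolus, where RNA polymerase I transcribes one long precursor RNA. Small nucleolar RNA-protein complexes (snoRNPs) modify that precursor: box C/D snoRNPs methylate it and box H/ACA snoRNPs convert uridine to pseudouridine. Processing factors then cut and fold it into the small and the large ribosomal subunit.

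An E-box near the start is a feature many of the members share. RefSeq promoter windows (GRCh38.p14, 250 bases before to 50 after the start) were given for 38 of the 44 members, and not for MYC, NOP58, NOLC1, RRP12, BOP1 and RRS1. The motif CACGTG, which reads the same on both strands, was found for 17 of the 38 (44.7%), against 1397 of 11303 tested genes with a window (12.4%). By role it ran from 0% for RNA polymerase I to 66.7% for nucleolar proteins. In lists described below it was 35.1% for other small-subunit factors, 35% for other large-subunit factors and 65.4% for MYC targets outside the ribosome. The remaining lists lay between 8.33% and 23.1%. By position, 11 members (28.9%) had a match at or past the RefSeq start, against 1.76% of tested genes, while 6 members (15.8%) had one wholly before it, against 11.1%. This split depends on the start used. The GENCODE 29 gene start of NOP14 (2963385) would put its motif before the start. Those of NAT10 (34105602), DDX21 (68956128), LYAR (4290169) and UTP4 (69131291) would put theirs past it. That of NOP10 (34343177) would put the motif printed below past the start and leave its farther motif (-170 to -165) before it. A match is a string of letters in the window and not a measured binding site. MYC targets are known to be rich in this motif, and the members form a known MYC target set, so the share is a description of the list.

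The sequences are 30-base windows, 5′ to 3′ on the gene's strand with the E-box in capitals, for the 3 called members that hold one (UTP20, FBL and NOP14) and, for contrast, for 3 members that were not called, NOP10, DDX21 and RRP9, chosen after their values were seen. Positions of the motif are counted from the RefSeq start, its first transcribed base being 1.
UTP20 (motif from -10 to -5): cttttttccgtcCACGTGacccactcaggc
FBL (motif from 7 to 12): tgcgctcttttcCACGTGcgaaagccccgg
NOP14 (motif from 16 to 21): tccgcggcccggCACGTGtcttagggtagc
NOP10 (motif from -11 to -6): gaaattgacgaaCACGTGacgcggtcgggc
DDX21 (motif from -31 to -26): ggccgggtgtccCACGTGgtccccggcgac
RRP9 (motif from -5 to 1): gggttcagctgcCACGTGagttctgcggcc
These windows lie at chr12:101280083-101280112 (plus strand) for UTP20, chr19:39846356-39846385 (minus) for FBL, chr4:2963374-2963403 (minus) for NOP14, chr15:34343130-34343159 (minus) for NOP10, chr10:68956604-68956633 (plus) for DDX21 and chr3:51941892-51941921 (minus) for RRP9. Members with and without the motif had the same median change. Of the 17 members with it 3 were called, with a median log2 fold change of -0.10, and of the 21 without it 5 were called, with the same median of -0.10.

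**Figure D1:**
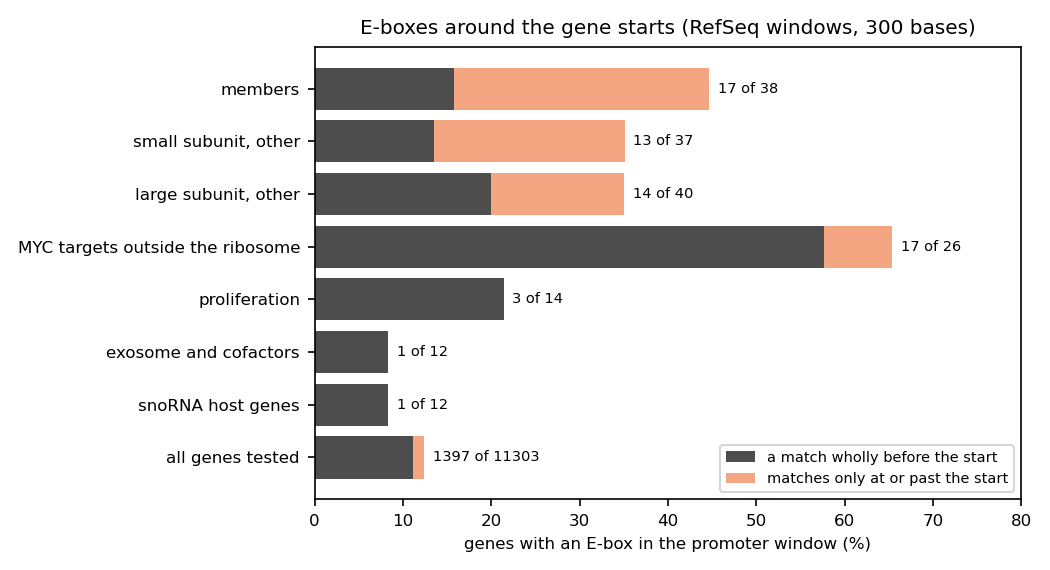
Share of genes (%) with an E-box in the RefSeq promoter window, for the members, other lists of the pathway and all genes tested, with the part whose matches lie wholly before the start in dark and the part with matches only at or past the start in light. The members reach 44.7% (17 of 38), against 12.4% of tested genes (1397 of 11303).

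With auranofin, MYC and 9 ribosome biogenesis factors fell and none of the 44 rose. The fallers were MYC, the RNA polymerase I subunit POLR1A, the snoRNP proteins FBL, NHP2 and DKC1, the small-subunit factors UTP20, HEATR1 and NOP14, and the large-subunit factors BOP1 and GRWD1 (edgeR quasi-likelihood test, adjusted p under 0.05 over all genes). These 10 of 44 (22.7%) compare with 7.81% of all tested genes lower and 15.4% called in either direction. All tested genes include many with low counts. In a fit of genes averaging at least 10 CPM, 12 of 41 members were lower, against 11.2% of those genes, with 21.8% called in either direction. At an unadjusted p under 0.05 the share was 16 of 44 (36.4%), against 29.8% of all genes, with 15 of the 16 lower and 1 higher (NOP10). DESeq2 called 12 members lower and 0 higher. Over all genes it called 3070, which is 17.8% of those given an adjusted p, and 1543 of them were lower. The median log2 fold change (AF over DMSO) was -0.10 for the members and 0.01 for all genes, and 35 of 44 members (79.5%) had a negative estimate, against 49.2% of genes. The 34 members that did not pass had estimates between -0.32 and 0.15. For 12 members every AF library lay below every DMSO library, against 9.68% of all genes, and for 0 members every AF library lay above, against 9.86%. The number called depended on whether the ribosomal DNA counts of AF replicate 1 entered the scaling. With library totals alone, which hold them, 4 members stayed called (MYC, UTP20, BOP1 and GRWD1), where 3.99% of all genes were lower. The median of all genes shifted to -0.14, against -0.25 for the members. A setting chosen after seeing the data left ribosomal DNA entries out and used library totals alone. In it all 10 stayed called and NCL and RRS1 joined them, where 9.29% of all genes were lower. Its medians were -0.02 for all genes and -0.12 for the members.

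**Figure D2:**
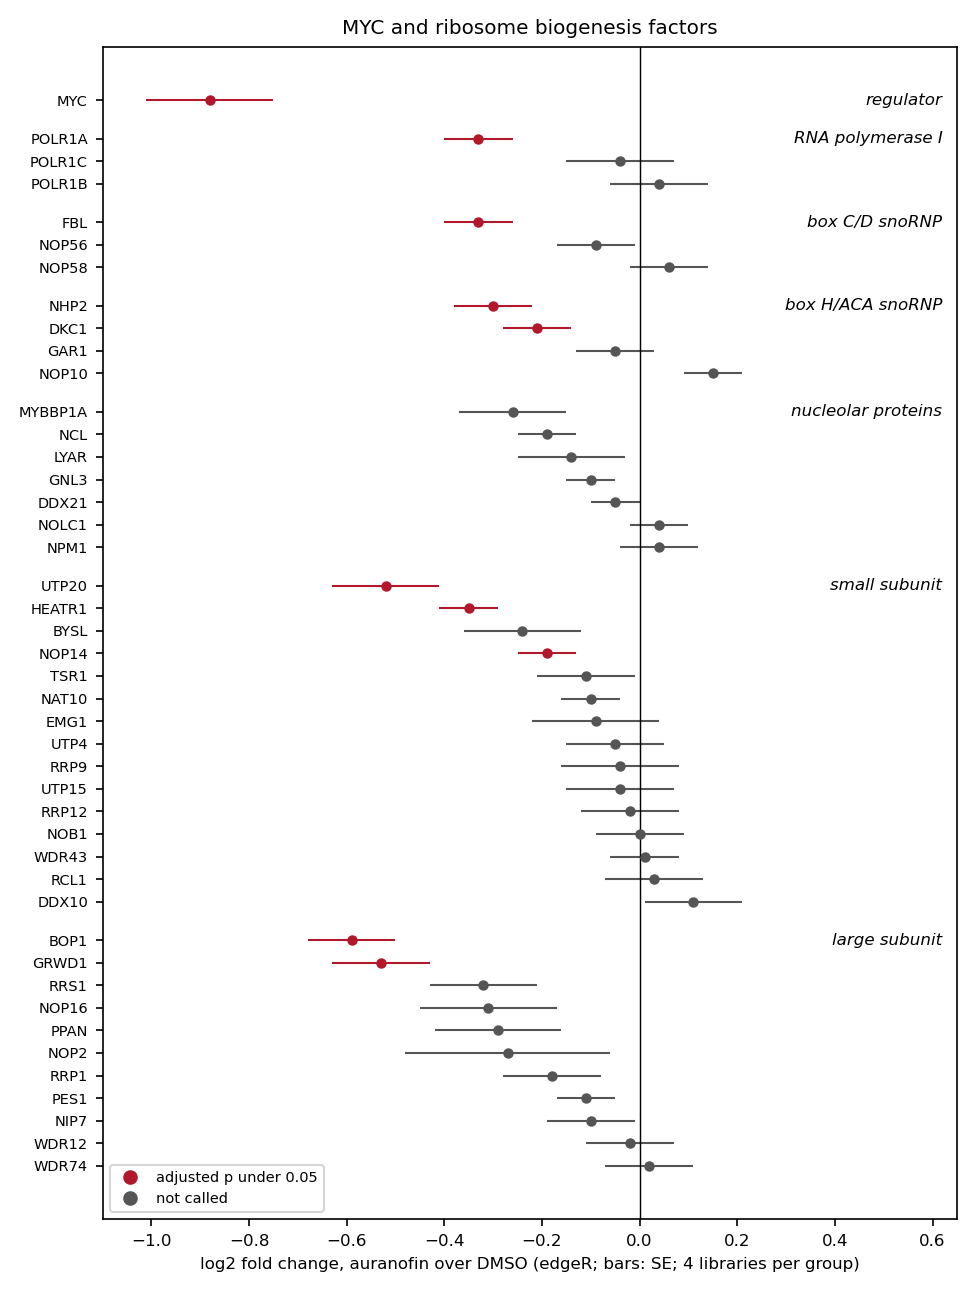
Log2 fold change (AF over DMSO; points, with SE as bars; 4 libraries per group) for each of the 44 members, grouped by role, with called members in red. MYC has the most negative value (-0.88), the 10 called members run from -0.88 to -0.19, and NOP10 has the highest value (0.15, not called).

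In AF replicates 1 to 4 the MYC level was 22.7, 26.1, 21.9 and 20 CPM, against 37.1, 45.3, 50.2 and 33.9 CPM in DMSO replicates 1 to 4. All 4 AF values were below all 4 DMSO values, and the DMSO libraries were the more spread. The means were 22.7 ± 2.55 CPM in AF and 41.6 ± 7.47 CPM in DMSO (SD, n = 4 each), so that AF was at 54.4% of DMSO, with a log2 fold change of -0.88 ± 0.13 (SE; adjusted p = 3.11e-04). MYC stayed called under all 19 alternative settings, with values between -1.02 and -0.74. It was the only member still called in libraries 1 and 4 of each group alone (-0.74). The labels do not name that division, which was taken from the members' DMSO values.

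Partners and rivals of MYC moved in their own directions. Of 14 genes of the MYC network 13 were tested, 4 rose (7.62% of all genes rose) and 1 fell. MYCL, which encodes a relative of MYC, rose to 115.7 ± 5.20 CPM in AF, against 62.4 ± 11.8 CPM in DMSO (0.89 ± 0.10, adjusted p = 5.07e-05). MXD1 and MXI1, which encode proteins that pair with MAX and repress MYC sites, rose by 0.50 ± 0.09 and 0.51 ± 0.11 on the log2 scale. MLXIPL, the gene of the glucose-sensing factor ChREBP, rose by 0.64 ± 0.12. MXD4, from the same family of repressors as MXD1, fell by 0.44 ± 0.09. MAX itself was at 75.3 ± 2.52 CPM in AF and 74.1 ± 7.91 CPM in DMSO and was not called (0.02 ± 0.07, adjusted p = 0.856). With library totals alone 1 of the network genes was called higher.

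RNA polymerase I was represented by 3 subunits. POLR1A, the largest catalytic subunit, stood at 50.9, 45.6, 45.3 and 42.2 CPM in AF, against 51.0, 61.5, 58.1 and 60.2 CPM in DMSO. The groups did not overlap, though AF replicate 1 and DMSO replicate 1 nearly met, and the log2 fold change was -0.33 ± 0.07 (adjusted p = 0.0084). POLR1B, the second catalytic subunit, and POLR1C, which RNA polymerase III shares, were not called, with values of 0.04 ± 0.10 and -0.04 ± 0.11. Their libraries overlapped: POLR1B lay between 22.0 and 24.2 CPM in AF and between 20.9 and 25.7 CPM in DMSO. The POLR1A call was lost with library totals alone (-0.49, adjusted p = 0.0798), and held once ribosomal DNA entries were left out of those totals (-0.35, 0.00423).

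In the box C/D snoRNP, FBL fell and its partners were not called. FBL encodes fibrillarin, the methyltransferase of the complex, and stood at 71.3, 65.6, 63.3 and 59.1 CPM in AF, against 79.5, 82.7, 88.1 and 75.1 CPM in DMSO. The groups did not overlap, and FBL fell by 0.33 ± 0.07 on the log2 scale (adjusted p = 0.00433). NOP56 and NOP58, the paired scaffold proteins, had log2 fold changes of -0.09 ± 0.08 and 0.06 ± 0.08 (adjusted p = 0.496 and 0.684). NOP58 turned to -0.04 without AF replicate 4, which held 58.5 CPM against 44.6 to 47.8 CPM in the other AF libraries. FBL too lost its call with library totals alone (-0.49, adjusted p = 0.0798) and held it with ribosomal DNA entries left out of them (-0.35, 0.00185).

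In the box H/ACA snoRNP, 2 of 4 proteins fell, where 7.81% of all genes fell. With so few genes the share was not tested. NHP2, a core protein, stood at 29.1, 33.0, 27.8 and 29.2 CPM in AF, against 37.0, 37.4, 36.3 and 35.8 CPM in DMSO. The DMSO libraries were close together and all above AF, and NHP2 fell by 0.30 ± 0.08 (adjusted p = 0.0253). DKC1, which encodes dyskerin, the pseudouridine synthase, stood at 61.6, 59.9, 65.4 and 64.5 CPM in AF, against 63.4, 74.8, 77.6 and 75.3 CPM in DMSO. It fell by 0.21 ± 0.07 (adjusted p = 0.043), and it was the one called member whose groups overlapped, because DMSO replicate 1 lay within the AF range. GAR1 was not called (-0.05 ± 0.08), nor was NOP10, whose AF libraries held 115.6, 110.0, 106.0 and 97.4 CPM and whose DMSO libraries held 94.5, 95.7, 104.9 and 90.6 CPM (0.15 ± 0.06, adjusted p = 0.12). NOP10 passed as higher without AF replicate 4 (0.20, adjusted p = 0.0279) and was at -0.01 with library totals alone. Both falls are near the threshold: NHP2 was lost without AF replicate 3 (adjusted p = 0.0959) or DMSO replicate 1 (0.0674), 2 (0.08) or 3 (0.0668), and DKC1 without AF replicate 1 (0.0979), 2 (0.113) or 3 (0.0774) or DMSO replicate 2 (0.117), 3 (0.142) or 4 (0.0835). DKC1 was also lost with libraries summed by name stem (0.0599) and with no filter on low counts (0.0619). With library totals alone neither was called, at -0.45 (adjusted p = 0.148) for NHP2 and -0.36 (0.271) for DKC1, and both were called with ribosomal DNA entries left out of the totals (0.0168 for NHP2 and 0.0268 for DKC1).

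Of 7 abundant or regulatory nucleolar proteins none was called in edgeR, where 15.4% of all genes were called. An unadjusted p under 0.05 was found for 2 (NCL and MYBBP1A), and DESeq2 called 1 (NCL). NCL encodes nucleolin, which binds ribosomal RNA, and stood at 599, 574, 560 and 599 CPM in AF, against 649, 668, 691 and 650 CPM in DMSO. The groups did not overlap, yet the log2 fold change of -0.19 ± 0.06 missed the threshold (adjusted p = 0.060). Settings under which NCL passed included DESeq2 (adjusted p = 0.00217), ribosomal DNA entries left out (0.0269), and the fits without AF replicate 1 (0.0257) or AF replicate 4 (0.0399). It did not pass with library totals alone (0.364), with no filter on low counts (0.113) or when any other single library was left out (0.0678 to 0.173). MYBBP1A, an MYB-binding nucleolar protein gene, also had no overlap, at 17.5 to 23.3 CPM in AF and 24.7 to 28.0 CPM in DMSO (-0.26 ± 0.11, adjusted p = 0.113). NPM1, which encodes the histone and ribosome chaperone nucleophosmin, stood at 658, 646, 675 and 763 CPM in AF and 634, 654, 724 and 665 CPM in DMSO (0.04 ± 0.08, adjusted p = 0.795). AF replicate 4 was its highest library, and the groups overlapped. NPM1 has many pseudogenes that may share its reads; NPM1P27 stood at 117.8 ± 14.9 CPM in AF and 114.4 ± 2.86 CPM in DMSO. The RNA helicase DDX21 (-0.05), the GTP-binding protein GNL3 (-0.10), NOLC1 (0.04), which shuttles between nucleolus and cytoplasm, and the zinc-finger protein LYAR (-0.14) had adjusted p-values of 0.242 or more.

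Among 15 factors of the small subunit, 3 fell, where 7.81% of all genes fell. This share also rests on few genes and was not tested. Of 44 further small-subunit factors, described below, 1 fell. UTP20, a very large scaffold of the early precursor, stood at 22.0, 17.3, 17.3 and 20.9 CPM in AF, against 26.0, 26.8, 28.7 and 29.4 CPM in DMSO. The groups did not overlap, with AF replicates 2 and 3 lowest, and UTP20 fell by 0.52 ± 0.11 (adjusted p = 0.00429). HEATR1, another scaffold of this precursor that in yeast links it to RNA polymerase I transcription, stood at 63.4, 63.7, 65.1 and 70.7 CPM in AF, against 78.9, 82.0, 87.4 and 85.9 CPM in DMSO. HEATR1 fell by 0.35 ± 0.06 with no overlap (adjusted p = 0.001), and its call was lost with library totals alone (-0.49, adjusted p = 0.0784) but not with ribosomal DNA entries left out of them (-0.37, 6.79e-04).

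NOP14, a nucleolar factor of the same precursor, stood at 53.3, 48.9, 50.5 and 54.7 CPM in AF, against 59.5, 60.6, 60.2 and 56.1 CPM in DMSO. AF replicate 4 and DMSO replicate 4 nearly met, and the fall of 0.19 ± 0.06 was slight (adjusted p = 0.041). It was lost without AF replicate 1 (0.0725), 2 (0.13) or 3 (0.146), without DMSO replicate 1 (0.102), 2 (0.131) or 3 (0.119), with no filter on low counts (0.146) and with library totals alone (0.301), though not with ribosomal DNA entries left out of those totals (0.0236). The other 12 small-subunit factors had log2 fold changes between -0.24 and 0.11 with adjusted p-values of 0.207 or more. They were BYSL, TSR1 and NOB1, which act late in the small subunit, RRP12, the acetyltransferase NAT10, the methyltransferase EMG1, RCL1, the helicase DDX10, and UTP4, UTP15, WDR43 and RRP9 of the early precursor. BYSL was the lowest of these (-0.24 ± 0.12), at 12.9 to 14.3 CPM in AF and 12.8 to 19.2 CPM in DMSO, and its groups overlapped.

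Among 11 factors of the large subunit, 2 fell (18.2%, against 7.81% of all genes). Here too the share rests on few genes and was not tested. BOP1, which works with PES1 and WDR12 in one complex that processes the large-subunit RNA, stood at 48.0, 47.0, 41.9 and 37.0 CPM in AF, against 60.7, 72.4, 67.9 and 60.2 CPM in DMSO. BOP1 fell by 0.59 ± 0.09 with no overlap (adjusted p = 3.77e-04), the second-largest fall among the members after MYC. Its partners were not called: PES1 lay between 62.4 and 68.6 CPM in AF and between 67.6 and 73.3 CPM in DMSO (-0.11 ± 0.06, adjusted p = 0.193), and WDR12 was at -0.02 ± 0.09 on the log2 scale (adjusted p = 0.893). GRWD1, whose yeast counterpart is a chaperone of a large-subunit ribosomal protein, stood at 22.9, 22.4, 22.0 and 21.5 CPM in AF, against 27.9, 36.6, 34.99 and 28.5 CPM in DMSO. The AF libraries were close together and the DMSO libraries were not, and GRWD1 fell by 0.53 ± 0.10 with no overlap (adjusted p = 0.00372).

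The other 9 large-subunit factors did not pass. RRS1, needed to place the 5S RNA, came closest, at 17.4, 16.8, 15.7 and 15.05 CPM in AF against 18.5, 22.0, 22.9 and 17.5 CPM in DMSO, with no overlap (-0.32 ± 0.11, adjusted p = 0.0557). Settings under which RRS1 passed included DESeq2 (adjusted p = 0.0238) and the fits without AF replicate 1 (0.0358) or DMSO replicate 4 (0.0232). It did not pass with library totals alone or when any other single library was left out. NOP16, PPAN and NOP2 had estimates of -0.31, -0.29 and -0.27 with overlapping groups and adjusted p-values of 0.155 or more. RRP1, NIP7 and WDR74 lay between -0.18 and 0.02.

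**Figure D3:**
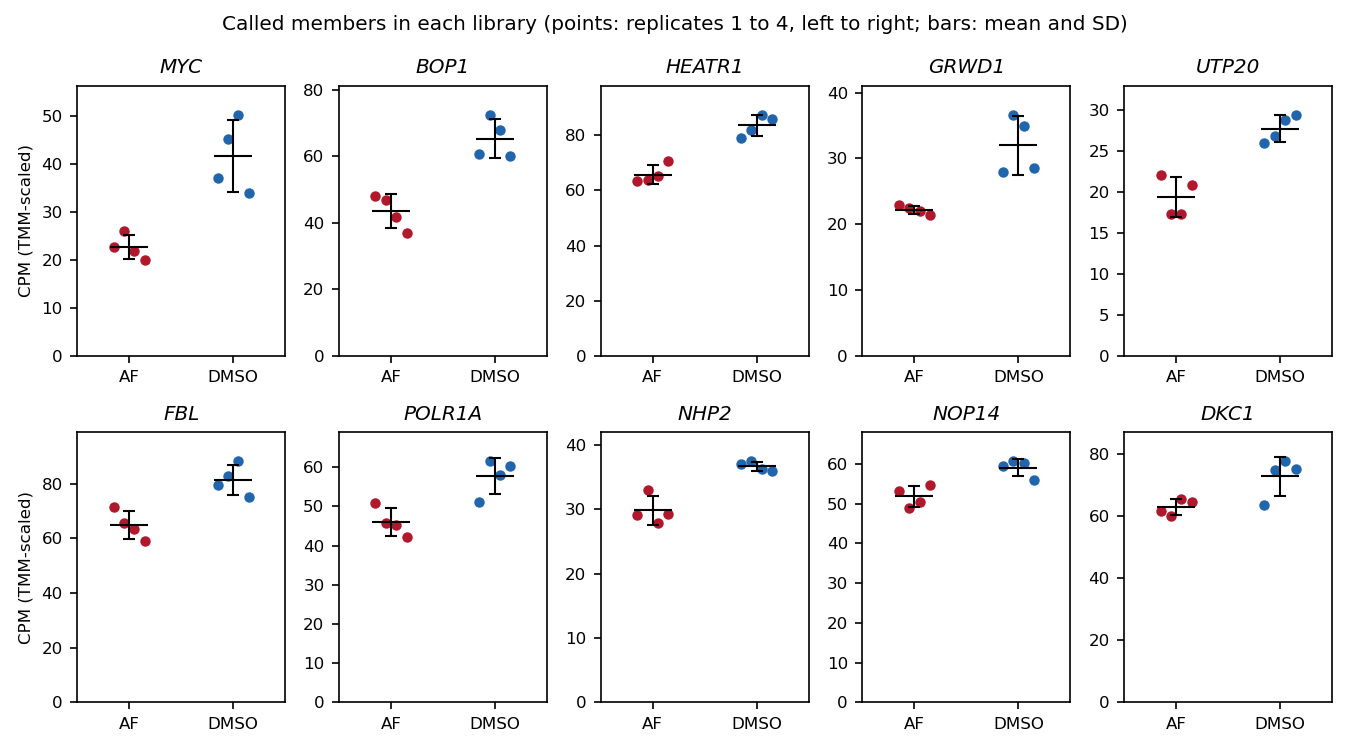
CPM of the 10 called members in each library, with AF (red) left of DMSO (blue), replicates 1 to 4 as points from left to right, and the mean and SD (n = 4) as bars. Apart from DKC1, where DMSO replicate 1 (63.4 CPM) lies within the AF range, all AF points lie below all DMSO points.

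Libraries of one group also differed among themselves. In DMSO, 25 of 44 members (56.8%) were higher in both replicates 2 and 3 than in both replicates 1 and 4, against 24.9% of all tested genes, and MYC, BOP1, FBL, GRWD1, NCL and RRS1 were among them. The division was taken from the members' own DMSO values, so their DMSO share was bound to be high and is only a description. In AF, 12 members (27.3%) were lower in both replicates 2 and 3, against 19.7% of genes, and 2 members (4.55%, BYSL and NOP2) were higher in both, against 18.02% of genes. The members summed to 2731, 2639, 2639 and 2802 CPM in AF replicates 1 to 4, and to 2812, 2960, 3095 and 2843 CPM in DMSO replicates 1 to 4. All 4 AF sums were below the DMSO sums, and AF replicate 4 nearly reached DMSO replicate 1. Without NCL and NPM1, the most counted members, the sums ran from 1404 to 1473 CPM in AF and from 1529 to 1681 CPM in DMSO.

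Libraries 2 and 3 of each group alone gave 20 members lower and 0 higher (15.02% of all genes lower), and libraries 1 and 4 alone gave 1 lower, MYC (0.550% of all genes lower). In that order, the log2 fold change was -0.66 and -0.51 for BOP1, -0.69 and -0.35 for GRWD1, -0.68 and -0.37 for UTP20 and -0.40 and -0.25 for FBL. NHP2 showed no such gap, at -0.27 and -0.33. The difference between these 2 sets of libraries was not tested. They were divided by a pattern that the members' DMSO values show, so these values describe that pattern and are no separate result, and the second holds AF replicate 1, the library rich in ribosomal DNA counts. Leaving out AF replicate 1 gave 10 members lower, 8 of them also called with every library in, while DKC1 and NOP14 were lost and NCL and RRS1 gained. That fit called 8.2% of all genes lower.

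**Figure D4:**
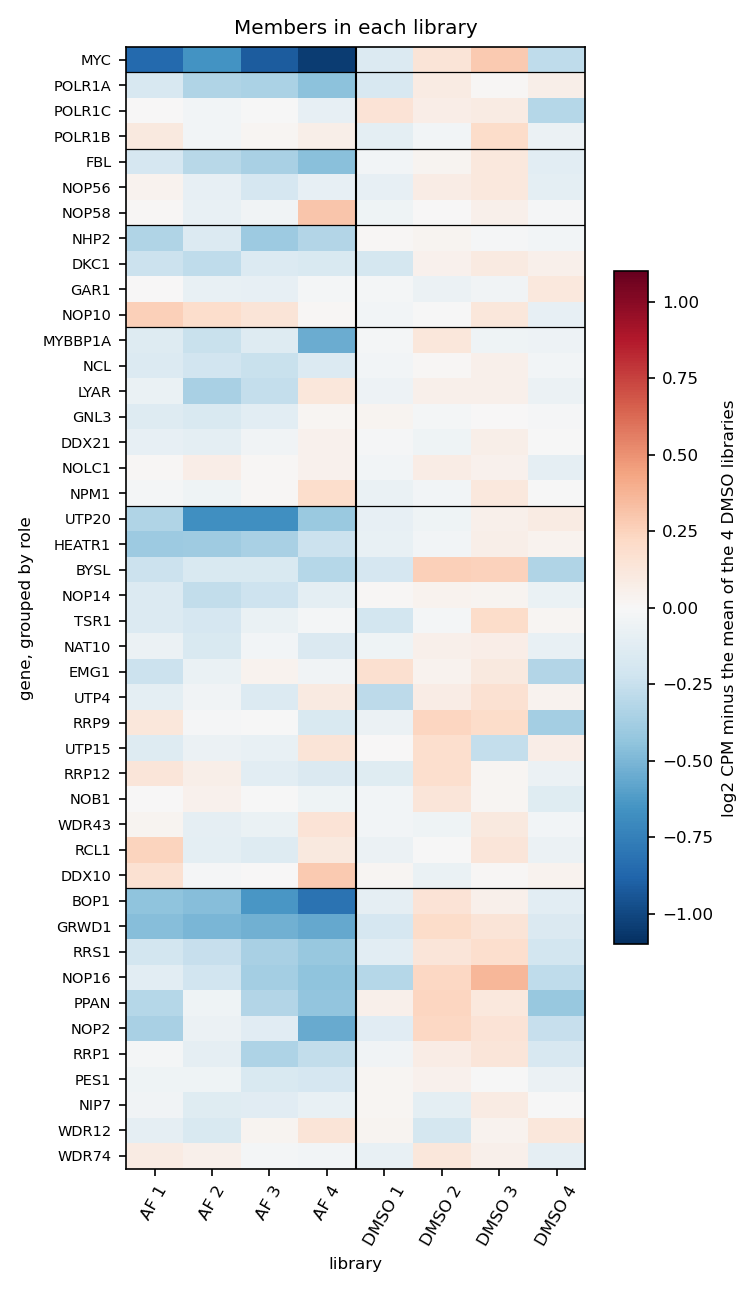
Log2 CPM of each member in each library minus its mean over the 4 DMSO libraries, with AF libraries left of DMSO libraries and genes grouped by role. MYC, UTP20, BOP1 and GRWD1 are blue in all 4 AF libraries, and DMSO replicates 2 and 3 tend to be redder than 1 and 4 (25 of 44 members higher in both).

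Other genes of the same pathway were read from lists, which were chosen with earlier results of these data known. Of 44 further small-subunit factors 1 fell, the helicase gene DHX37 (-0.33 ± 0.09, adjusted p = 0.0222), and none rose, with a median of -0.00 (at an unadjusted p under 0.05, 6 were lower and 2 higher, and DESeq2 called 2 lower and 1 higher). Of 46 further large-subunit factors 5 fell (10.9%) and 2 rose, with a median of -0.06, where 7.81% of all genes fell and 7.62% rose. A share of 10.9% is near that background. MDN1, a giant ATPase that remodels the large precursor, fell by 0.42 ± 0.07, EBNA1BP2 by 0.27 ± 0.07, and the export adaptor gene NMD3 rose by 0.26 ± 0.06. Of 12 other components of RNA polymerase I transcription 2 rose, TAF1D (0.36 ± 0.10) and TAF1A (0.43 ± 0.13), both subunits of its promoter selectivity factor, and none fell (1 was lower at an unadjusted p under 0.05 and DESeq2 called 0 lower). None of 14 exosome genes and none of 14 snoRNA host genes was called in edgeR or in DESeq2. At an unadjusted p under 0.05 there were 2 lower and 0 higher exosome genes and 2 lower and 1 higher host genes, the smallest p being those of MPHOSPH6 (-0.29 ± 0.12, adjusted p = 0.106) and SNHG4 (-0.48 ± 0.16, adjusted p = 0.0606). Several of these calls were lost when 1 library was left out. Without DMSO replicate 2 TAF1D (adjusted p = 0.0833), TAF1A (0.131), EBNA1BP2 (0.092) and DHX37 (0.0846) were lost, and leaving out other single libraries also ended them. Over all genes that fit called 1616, against 2705 with every library, so such losses are not particular to these genes.

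MYC targets outside the ribosome were also read from a list chosen with earlier results of these data known. Its share describes the list and is no independent result. Of 28 tested 10 fell (35.7%, against 7.81% of all genes) and 1 rose, with a median of -0.22. PTMA, a chromatin-associated growth gene, averaged 996 ± 34.7 CPM in AF and 1331 ± 83.0 CPM in DMSO (-0.42 ± 0.07). SRM, which encodes spermidine synthase, fell by 0.47 ± 0.09 and RCC1, a nuclear exchange factor gene, by 0.38 ± 0.08, whereas the hexokinase gene HK2 rose by 0.25 ± 0.06. With library totals alone 2 fell and none rose, and without AF replicate 1 12 fell and none rose. Of 17 proliferation genes 11 fell (64.7%, against 7.81% of all genes) and 1 rose, with a median of -0.31. Their summed level was 1090 to 1209 CPM in AF and 1324 to 1417 CPM in DMSO, without overlap. The 5 not called were CCNA2 (-0.15), BUB1 (-0.09), AURKB (-0.04), TOP2A (-0.02) and CDK1 (0.01), so the fall did not extend over the whole list. MCM3, MCM4 and MCM2, of the replicative helicase, fell by 0.56 ± 0.06, 0.58 ± 0.08 and 0.57 ± 0.09, and the mitotic cyclin gene CCNB1 rose by 0.22 ± 0.05. Their part in the fall of MYC and of the ribosome factors was not tested.

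**Figure D5:**
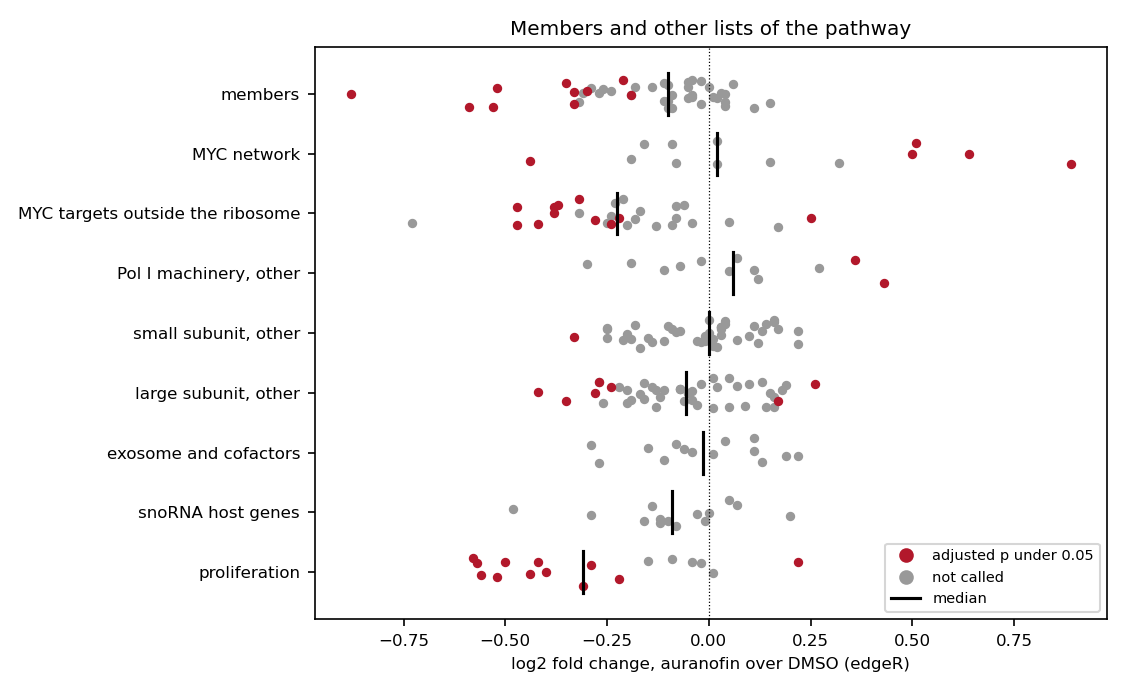
Log2 fold change (AF over DMSO) of each tested gene of the members and of 8 other lists, with called genes in red, other genes in grey and the list median as a black line. Medians lie at -0.31 for proliferation, -0.22 for MYC targets outside the ribosome, -0.10 for the members and -0.00 for the other small-subunit factors.

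Levels can be compared between genes only per exon length (RPKM, CPM per kilobase of exon). The length used is the union of all annotated exons of a gene, such as 554 bases for NOP10 and 13519 bases for POLR1A. It can exceed the length of the transcripts present, by amounts that differ between genes. The order of genes and their closeness on this scale therefore depend on the annotation. On that scale NOP10, at 193.6 ± 13.8 RPKM in AF and 174.1 ± 10.9 RPKM in DMSO, and NPM1, at 179.1 ± 13.9 RPKM in AF and 174.8 ± 10.1 RPKM in DMSO, were the highest members. NOP10 had the higher mean in AF and NPM1 in DMSO, and their difference was not tested. NCL followed at 84.2 ± 2.76 RPKM in AF and 95.9 ± 2.87 RPKM in DMSO, then FBL at 29.8 ± 2.33 and 37.4 ± 2.51 RPKM. The called members spread over the scale: MYC was at 7.55 ± 0.849 RPKM in AF and 13.9 ± 2.49 RPKM in DMSO, and UTP20 at 1.93 ± 0.242 and 2.77 ± 0.161 RPKM. Within the H/ACA complex DKC1 was at 14.95 ± 0.599 RPKM in AF and 17.3 ± 1.51 RPKM in DMSO, and GAR1 at 6.68 ± 0.206 and 6.90 ± 0.400 RPKM. With these exon lengths the 3 polymerase subunits lay between 3.40 and 3.94 RPKM in AF and between 3.56 and 4.27 RPKM in DMSO. The lowest member was NOP2, at 0.265 ± 0.0401 RPKM in AF and 0.321 ± 0.0502 RPKM in DMSO, from 22 to 48 counts per library.

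Some of these counts depend on how reads of overlapping genes were assigned, which is not given in the sources used here. In GENCODE 29 (GRCh38), 54.4% of the exon bases of NOP2 and 59.8% of those of PPAN are covered by another gene on the same strand, so their low counts are uncertain. For 9 members at least 15% of exon bases are covered from the opposite strand, among them the called NHP2 (27.4%, by RMND5B), HEATR1 (23.2%, by LGALS8) and NOP14 (17.1%, by NOP14-AS1). None of these neighbours was called: RMND5B had a log2 fold change of -0.12 ± 0.10, LGALS8 of 0.16 ± 0.07 and NOP14-AS1 of 0.01 ± 0.13. For 19 members, MYC, POLR1A, FBL and UTP20 among them, no other gene covers an exon. On this build UTP20 (ENSG00000120800.4) spans chromosome 12 from 101280109 to 101386616, FBL (ENSG00000105202.8) chromosome 19 from 39834458 to 39846414, HEATR1 (ENSG00000119285.10) chromosome 1 from 236549005 to 236604504 and GRWD1 (ENSG00000105447.12) chromosome 19 from 48445773 to 48457022, and counts are summed over the exons of each gene.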

How the data were processed

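The authors deposited unnormalised read counts for each gene. Per the submitters' processing notes, the build was GRCh38 and the tools included Subread 1.6.3, featureCounts and STAR 2.6.1d, and libraries were stranded and made from 250 ng of total RNA by poly-A selection, per the labels' protocols. Not given in the sources used here are the annotation, the strand setting and how multi-mapped reads were handled. Columns were matched to samples, groups and replicate numbers by title.

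From the counts, edgeR 4.0.16 (under R 4.3.3) was run with TMM factors (0.679 in AF replicate 1, 1.04 to 1.08 in the others), filterByExpr defaults, glmQLFit and glmQLFTest, two-sided, drug against vehicle with 8 libraries and 6 residual degrees of freedom, Benjamini-Hochberg adjustment over 17535 genes, threshold 0.05. SE is the log2 fold change divided by the square root of F. CPM use TMM-scaled library sizes, and exon lengths and overlaps come from GENCODE 29. Errors cover the spread between libraries; counts are not independent molecules. The method was tested on simulated data.

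The members, lists and tests were chosen with earlier results of these data known. Values in every library are given for MYC, for called members among the 16 smallest p and for the leading member of a role with none; lists give their 3 called genes with the smallest p and the first against the majority. MXI1, MAX, RRS1, MYBBP1A, NPM1, NOP10, the 6 called macrophage markers and other members with values were added after their values were seen. Alternatives were DESeq2 1.42.0, other scalings and filters, the replicate number as a block, libraries summed by name stem, each library left out, and libraries 1 and 4 or 2 and 3 alone.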

Additional observations from a re-analysis of the deposited data

Results flagged for a closer look

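In the 88 groups of 4 values (44 members, each in AF and in DMSO), a single library stood apart from its group by Dixon's test in 2 groups. In DMSO replicate 2 MYBBP1A was at 28.0 CPM, against 24.7 to 25.2 CPM in the other DMSO libraries, and in DMSO replicate 3 WDR43 was at 54.7 CPM, against 49.3 to 49.9 CPM. Chance alone flags about 1 in 20 groups, which is more than were seen. Neither gene was called.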

How the results depend on the processing

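Of 10 members called, MYC kept its call under all 19 alternatives, and BOP1, GRWD1 and UTP20 lost theirs only in libraries 1 and 4 alone. POLR1A, FBL and HEATR1 lost theirs there and with library totals alone. The division into libraries 1 and 4 or 2 and 3 was taken from the members' DMSO values. Counts under it therefore describe that pattern and are no separate check. With ribosomal DNA entries left out and library totals alone, chosen after seeing the data, 12 members were lower, all 10 among them, and 2715 genes were called. Every alternative kept the direction of the 10. Against 10 members lower and 0 higher, library totals alone gave 4 lower, libraries 1 and 4 alone 1, and libraries 2 and 3 alone 20; without each library in turn 7 to 12 were lower and 0 to 1 higher, the 1 being NOP10. Over all genes, 2705 were called (1369 lower, 49.4% higher), against 883 (700 lower, 20.7% higher) with library totals alone, 212 (97 lower) in libraries 1 and 4 alone, 5354 (2709 lower) in libraries 2 and 3 alone, and 1616 to 2964 (833 to 1502 lower) without each library. The causes were not tested. Nothing in the labels pairs libraries by replicate number, and the correlations of deviations between same-numbered AF and DMSO libraries (0.09, 0.13, 0.03 and 0.19 for numbers 1 to 4) were not all above 0.1. AF replicates 1, 2 and 4 correlated best with their own number, a hint of pairing from the data, and AF replicate 3 with DMSO replicate 2. With the replicate number as a block 13 members and 4188 genes were called (2086 lower), and all 10 members stayed, with NCL, MYBBP1A and RRS1 added. Libraries summed by name stem, 2 a group, gave 9 members lower, without DKC1 (adjusted p = 0.0599) and without NCL (0.123), MYBBP1A (0.139) and RRS1 (0.0929). Over all genes the summed libraries gave 2613 calls, 1322 of them lower.

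In the lists, library totals alone gave 0 higher among other RNA polymerase I genes, 0 lower among other small-subunit factors, 1 lower and 0 higher among other large-subunit factors, 1 higher in the MYC network, 2 lower and 0 higher among MYC targets and 0 higher among proliferation genes. Without AF replicate 1 there were 1 lower among RNA polymerase I genes, 2 lower among small-subunit factors, 1 higher among large-subunit factors and 0 higher among MYC targets.

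The sign of 18 members that were not called turned under some setting. With library totals alone it became negative for DDX10 (-0.04), NOLC1 (-0.11), NOP10 (-0.01), NOP58 (-0.09), NPM1 (-0.11), POLR1B (-0.12), RCL1 (-0.14), WDR43 (-0.15) and WDR74 (-0.13). In libraries 1 and 4 alone it became positive for LYAR (0.08), NOP16 (0.02), NOP56 (0.07), POLR1C (0.01), RRP12 (0.09), RRP9 (0.18) and UTP4 (0.11). In libraries 2 and 3 alone the new values were NOLC1 -0.02, NOP58 -0.09, NPM1 -0.06, POLR1B -0.09, RCL1 -0.19, WDR12 0.01, WDR43 -0.12 and WDR74 -0.07. WDR43 also turned to -0.01 with libraries summed by stem, and among genes averaging 10 CPM or more, and to -0.02 with ribosomal DNA entries left out and library totals. Over the fits that left out 1 library each, values that changed sign ran for WDR43 from -0.05 to 0.04, RCL1 from -0.05 to 0.08, WDR12 from -0.09 to 0.02, RRP12 from -0.07 to 0.04, NOP58 from -0.04 to 0.10, NPM1 from -0.02 to 0.07, RRP9 from -0.15 to 0.04, POLR1C from -0.14 to 0.01, UTP15 from -0.12 to 0.02, WDR74 from -0.01 to 0.06. Depth limits NOP2 (22 to 48 counts per library) most.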
